A study of Mus musculus with 30 samples.

Results

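Integrin and laminin chain genes were examined in C2C12 myotubes, with 38 members among the 55487 genes counted. The members were the protein-coding genes whose symbol follows the naming of an integrin alpha, integrin beta or laminin chain, a rule that uses names and no measured value. They comprised 27 integrin genes, with the integrin beta-like gene Itgbl1 among them, and 11 laminin genes. C2C12 is an immortalized clonal line of wild-type mouse myoblasts that fuse into multinucleated myotubes when serum is reduced. Cells had differentiated for 4 days in low-glucose medium with 2% horse serum before a further 4 days of treatment, 8 days in all. The 5 groups were 2% HS (horse serum kept), SD (serum deprivation, no serum), MET (SD with 100 nM metformin), LEU (SD with 500 nM leucine) and MET+LEU (SD with both compounds at these concentrations). Each group had 6 RNA-seq libraries. The labels do not say whether replicates came from separate cultures, so p-values measure the spread between these libraries, which may be technical.

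Laminins are secreted trimers of an alpha, a beta and a gamma chain that assemble the basement membrane around each muscle fibre. Integrins are membrane receptors made of an alpha and a beta chain, and they tie this matrix to the cytoskeleton and signal from it. In muscle, the receptor containing Itga7 and Itgb1 and the laminin containing Lama2 are best known for holding the fibre to its basement membrane, and loss of LAMA2 or ITGA7 causes congenital muscle disease in humans.

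Libraries held between 12784960 and 19604103 counts on genes. Of the 38 members, 31 (21 integrin and 10 laminin chains) passed the filter on low counts and were tested among 15907 genes. The tested members had a median of 352.8 counts per library, against 262.1 for all genes tested. The cultures carried the labelled muscle identity, with Myog at a mean of 691 RPKM (counts scaled to library size and to exon length) in 2% HS and 715 RPKM in SD. Of 10 myotube markers, 1 rose and 3 fell in SD vs. 2% HS. Those that fell were Ckm (106 RPKM in 2% HS and 53.7 RPKM in SD), Atp2a1 (414 and 251 RPKM) and Myh1 (365 and 278 RPKM). The summed level of all 10 ranged from 5121 to 5565 RPKM in 2% HS and from 4548 to 5451 RPKM in SD. Acta1 was the largest part of it, at a mean of 2293 RPKM in 2% HS and 2132 RPKM in SD. Pax7, a marker of undifferentiated myogenic cells, was at 32.4 RPKM in 2% HS and 25.1 RPKM in SD. Means of the other listed markers went both ways. Hey1 (3.25 and 2.21 RPKM) and Myf5 (9.26 and 8.50 RPKM) were lower in SD. Cd34 (1.76 and 2.37 RPKM) and Spry1 (14.6 and 15.8 RPKM) were higher. RNA came from whole cultures, in which fewer cells of a type and less RNA per cell cannot be told apart. MET+LEU replicate 6 stood apart, with 5.85% of its counts on nuclear and 7.64% on mitochondrial ribosomal RNA genes, where no other library exceeded 1.96% and 0.760%.

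Chain levels differed widely within each family. Per length, the muscle laminin receptor chains led the family: Itgb1 had a mean of 161 RPKM in SD and Itga7 96.4 RPKM. Itgb5, an Itgav partner, followed at 50.7 RPKM, and Itga5, the fibronectin receptor chain, at 45.6 RPKM. Itga7 made up 52.0% ± 2.48 (s.d., n = 6) of the summed alpha chain level in SD and Itgb1 70.0% ± 2.47 (s.d., n = 6) of the summed beta chain level. Among laminins, Lama5 (28.1 RPKM), Lamb2 (23.5 RPKM) and Lamc1 (23.2 RPKM) were the highest chains of their kinds in SD. Lama2, the alpha chain of the mature fibre's basement membrane, was at 10.7 RPKM and made up 26.8% ± 2.15 (s.d., n = 6) of the alpha level, against 69.7% ± 2.14 (s.d., n = 6) for Lama5. Lamb1 (13.6 RPKM) lay between these, while Lama1, Lama4 and Lamc3 each had a mean between 0.360 and 0.859 RPKM. The order of chains and the size of each share, here and below, depend on exon length over all annotated exons. This was 16338 bases for Lama2, 11388 for Lama5, 8092 for Itga7 and 4081 for Itgb1. By counts scaled to library size alone (CPM), the SD means of Lama2 and Lama5 were 175 and 320 CPM. Itga7 (705 to 864 CPM in SD) lay above Itgb1 (603 to 697 CPM) by this measure.

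Leukocyte integrin chains were close to the counting limit. Itgad, Itgal, Itgam, Itgax and Itgb7 were not tested, with totals over 30 libraries of 16, 90, 55, 45 and 99 counts. The collagen receptor chain Itga2 (111 counts in total) and Lama3, an epithelial laminin chain (81 counts in total), were not tested either. Reads on part of Itgam could belong to another gene, since 68.7% of its exon length is shared with Gm49368 on the same strand.

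**Figure D1:**
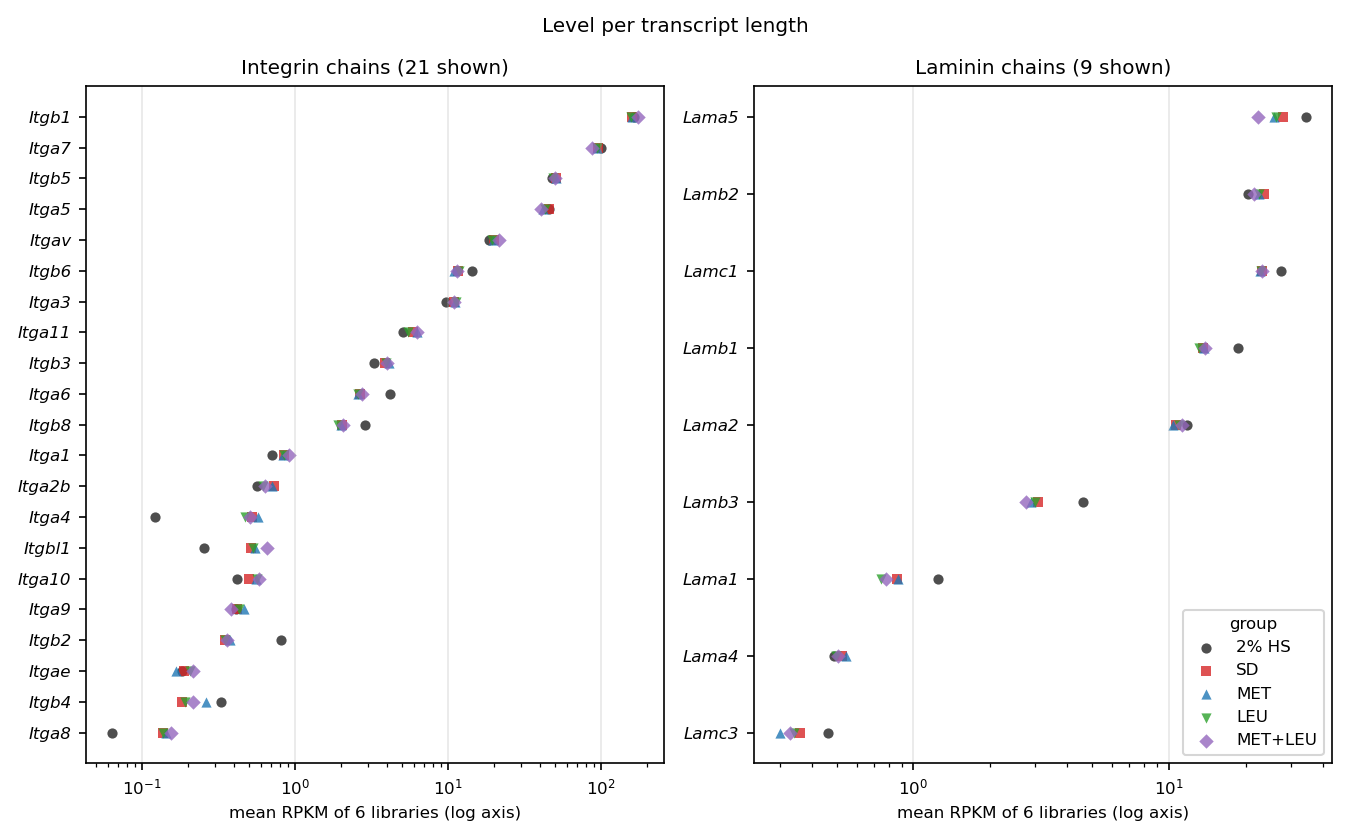
Mean RPKM of 6 libraries on a log axis for 30 of the 31 tested chains, with a symbol for each group and integrins on the left. Itgb1 (161 RPKM in SD) and Itga7 (96.4 RPKM) stand at the top of the integrins, and the 2% HS point lies apart from the 4 serum-free groups for Itga4, Itgb2, Itga6, Lamb1 and Lamb3.

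Chains of both families differed between SD and 2% HS. The shares of the leading integrin chains overlapped between these groups. Itga7 was 53.8% ± 1.14 (s.d., n = 6) of the alpha level in 2% HS and 52.0% ± 2.48 in SD. Itgb1 was 70.3% ± 1.13 of the beta level in 2% HS and 70.0% ± 2.47 in SD. In SD vs. 2% HS, 9 of 31 tested members were upregulated and 11 downregulated, and 27.8% of all tested genes were called in this comparison at an adjusted p under 0.05, 13.9% in each direction. Laminin chains mostly fell, with 6 of 10 tested downregulated and 1 upregulated and a median log2 fold change of -0.27. Integrin chains were mixed, with 8 of 21 tested upregulated and 5 downregulated and a median of 0.08, beside 0.00 over all genes tested. Libraries of the groups did not overlap for 13 members, 3 higher and 10 lower in SD, and this held for 13.6% of all genes.

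Lamb1, the widely used laminin beta chain, was at 179 to 189 CPM (counts scaled to library size) in 2% HS (median 185) and at 122 to 146 CPM in SD (median 136). Every SD library lay below every 2% HS library, and the gene fell by 0.45 ± 0.04 (SE) on the log2 scale (adjusted p = 3.7e-13). Lamc1, the gamma chain of most laminins, ranged from 220.4 to 237 CPM in 2% HS (median 228) and from 185 to 198 CPM in SD (median 192), again without overlap. Its log2 fold change was -0.24 ± 0.03 (SE, adjusted p = 7.1e-09). Lama5, an alpha chain found in many basement membranes and at the neuromuscular junction, was at 369.9 to 407 CPM in 2% HS (median 393) and 280.1 to 357 CPM in SD (median 316). The groups were separate here too, and the log2 fold change was -0.29 ± 0.05 (SE, adjusted p = 9.2e-06).

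Lama2 was lower by a smaller step, from 187 to 205 CPM in 2% HS (median 191) to 169 to 182 CPM in SD (median 174), a log2 fold change of -0.14 ± 0.03 (SE, adjusted p = 0.00081). Its groups did not overlap. The embryonic chain Lama1 had 10.4 to 14.4 CPM in 2% HS (median 11.98) and 5.93 to 9.70 CPM in SD (median 9.235), and fell by 0.54 ± 0.11 (SE) on the log2 scale (adjusted p = 0.00016). Lamb3, a beta chain of epithelial laminin, had 28.4 to 33.2 CPM in 2% HS (median 29.7) and 15.4 to 23.8 CPM in SD (median 20.1). Both chains were separate between the groups, and Lamb3 was 1.497-fold lower (adjusted p = 2.2e-08). Lama4 did not pass the test (log2 fold change 0.11 ± 0.12, SE, adjusted p = 0.53), nor did Lamc3 (-0.37 ± 0.16, SE, adjusted p = 0.085).

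Lamb2 was the exception among the laminins. This beta chain, concentrated at the neuromuscular junction in adult muscle, was at 112 to 131 CPM in 2% HS (median 126) and at 133 to 157 CPM in SD (median 140.2). The lowest SD library was above the highest 2% HS library, and the log2 fold change was 0.20 ± 0.04 (SE, adjusted p = 0.00018). With Lamb1 lower and Lamb2 higher, the beta chain level shifted between them: Lamb1 made up 42.7% ± 1.40 (s.d., n = 6) of it in 2% HS and 33.9% ± 0.824 (s.d., n = 6) in SD, and Lamb2 46.8% ± 1.43 and 58.5% ± 1.08. The libraries of the 2 groups did not overlap in either share. The size of each share depends on exon length over all annotated exons, 9917 bases for Lamb1 and 6082 for Lamb2. By CPM, without length, Lamb1 was above Lamb2 in 2% HS (179 to 189 against 112 to 131 CPM). All 3 groups given metformin, leucine or both kept Lamb2 means between 56.5% and 58.1% of the beta level.

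**Figure D2:**
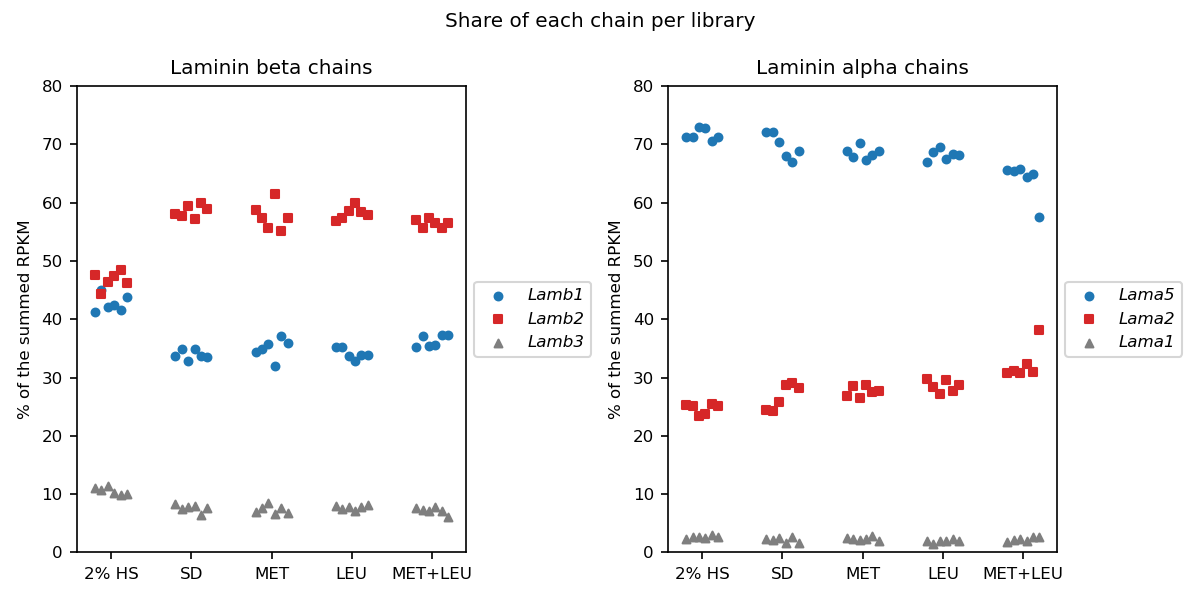
Share of each laminin chain in the summed RPKM of its kind, 1 point per library, for beta chains (left) and alpha chains (right) in 5 groups. Lamb1 and Lamb2 lie close together in 2% HS (42.7% and 46.8% on average) and apart in SD (33.9% and 58.5%), and the lowest Lama5 point, 57.5%, is MET+LEU replicate 6.

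Laminin-binding integrin alpha chains went different ways. Itga6 (chr2:71745616-71858416, GRCm38), a laminin receptor chain of myoblasts that pairs with Itgb1 or Itgb4, was at 35.7 to 41.5 CPM in 2% HS (median 38.1) and at 22.8 to 25.1 CPM in SD (median 24.2). The gap between the groups was wide, and Itga6 was 1.59-fold lower in SD (log2 fold change -0.67 ± 0.06, SE, adjusted p = 4.2e-13). Beside it, 2 of 5 markers of undifferentiated myoblasts fell and 1 rose, and their summed level ranged from 59.0 to 64.3 RPKM in 2% HS and from 51.3 to 58.2 RPKM in SD, and their part in the result was not tested. Itga3 rose slightly, from a median of 55.4 CPM (52.1 to 58.8) in 2% HS to 62.8 CPM (58.2 to 65.6) in SD, with overlapping groups and a log2 fold change of 0.17 ± 0.05 (SE, adjusted p = 0.0038). Itga7 was at 741 to 855 CPM in 2% HS and 705 to 864 CPM in SD, a log2 fold change of -0.06 ± 0.05 (SE) that did not pass the test (adjusted p = 0.41). Itgb1, its partner, was likewise not called (-0.04 ± 0.03, SE, adjusted p = 0.40).

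Itga4 had the largest change of the 31 tested members. The gene (chr2:79255426-79333123, GRCm38) encodes a chain that, with Itgb1, binds VCAM1 and fibronectin and is known from early myotubes and leukocytes. It was at 0.923 to 2.18 CPM in 2% HS (median 1.89) and at 5.69 to 8.61 CPM in SD (median 7.40). No libraries overlapped, and Itga4 was 4.20-fold higher in SD (log2 fold change 2.07 ± 0.15, SE, adjusted p = 7.2e-16). The related chain Itga9 had a log2 fold change of 0.02 ± 0.16 (SE, adjusted p = 0.94). The last exons of Itga4 share 1124 bases, 8.04% of its exon length, with Cerkl on the opposite strand, and the strand setting of the counting is not given in the sources used here.

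Chains that bind collagens or the RGD motif of fibronectin and related proteins rose or did not pass. Itga8, a nephronectin receptor chain, was sparse, at 0.231 to 0.619 CPM in 2% HS (median 0.514) and 0.266 to 1.499 CPM in SD (median 0.981). Its groups overlapped through SD replicate 2, and the log2 fold change was 1.08 ± 0.35 (SE, adjusted p = 0.015). Without SD replicate 3 the log2 fold change was 0.95 ± 0.37 (SE) and the call was lost (adjusted p = 0.053). Itgav, the alpha chain shared by receptors of vitronectin and latent TGF-beta, was at 195 to 207 CPM in 2% HS (median 201) and 197 to 228 CPM in SD (median 219.7), with a log2 fold change of 0.11 ± 0.03 (SE, adjusted p = 0.012). It lost the call without SD replicate 4 (adjusted p = 0.052). Itga5 was at a log2 fold change of 0.00 ± 0.04 (SE, adjusted p = 1.0), and Itga2b, the platelet chain, missed the threshold (0.38 ± 0.16, adjusted p = 0.070).

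Both called collagen receptor chains overlapped between groups. Itga1, a receptor chain for basement membrane collagen, had 12.1 to 14.7 CPM in 2% HS (median 12.99) and 13.6 to 17.7 CPM in SD (median 15.8), a log2 fold change of 0.25 ± 0.08 (SE, adjusted p = 0.010). Itga11, which binds fibrillar collagen and is best known from fibroblasts, had 23.1 to 29.2 CPM (median 26.4) and 28.01 to 32.5 CPM (median 30.2), a log2 fold change of 0.22 ± 0.06 (SE, adjusted p = 0.0054). Itga10 had 0.25 ± 0.18 (SE, adjusted p = 0.30). Itgbl1, an integrin beta-like protein with EGF-type repeats, was at 0.848 to 1.39 CPM in 2% HS (median 1.02) and at 1.90 to 2.39 CPM in SD (median 2.19). Its groups were separate, and it was 2.03-fold higher in SD (log2 fold change 1.02 ± 0.19, SE, adjusted p = 2.6e-05). Fibroblast markers moved with these genes: 3 of the 4 listed (Pdgfra, Lum and Dcn) were tested and all 3 rose, the summed level ranged from 3.26 to 4.86 RPKM in 2% HS and from 5.92 to 8.09 RPKM in SD, and Thy1 was at 0 counts in 3 of 6 libraries in 2% HS and 4 of 6 in SD. Their part in the result was not tested.

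Of the 6 beta chains that pair outside leukocytes, 3 fell, 1 rose and 2, Itgb1 and Itgb5, were not called. Itgb8, which with Itgav activates latent TGF-beta, went from 29.5 to 33.5 CPM in 2% HS (median 32.2) to 21.8 to 24.2 CPM in SD (median 22.3), and Itgb6, known for the same activity in epithelia, from 101 to 105 CPM (median 103) to 80.2 to 85.8 CPM (median 84.2). Neither gene had overlapping groups, and the log2 fold changes were -0.50 ± 0.06 (SE, adjusted p = 7.3e-10) for Itgb8 and -0.30 ± 0.04 (SE, adjusted p = 1.3e-08) for Itgb6. Itgb4, the hemidesmosome chain that pairs with Itga6, was at 1.31 to 3.42 CPM in 2% HS (median 2.21) and 0.856 to 1.75 CPM in SD (median 1.33), with overlap and a log2 fold change of -0.84 ± 0.21 (SE, adjusted p = 0.0020). Itgb3, an Itgav partner, was the beta chain that rose, from 17.8 to 21.4 CPM (median 19.2) to 21.3 to 25.1 CPM (median 22.7), with a log2 fold change of 0.24 ± 0.06 (SE, adjusted p = 0.0022) and slight overlap. Of 4 epithelial markers listed, 2 were tested and 1, Cdh1, was lower. The other, Krt14, was not called, at a mean of 0.427 RPKM in 2% HS and 0.404 RPKM in SD. The summed level ranged from 1.26 to 1.87 RPKM in 2% HS and from 0.768 to 1.41 RPKM in SD, and Epcam and Krt5 were at 0 in both groups. Their part was not tested. Itgb5 was not called (0.08 ± 0.05, SE, adjusted p = 0.19).

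Itgb2 (chr10:77530252-77565708, GRCm38), the common beta chain of leukocyte integrins, had the largest fall of the members, though at low counts. It was at 1.69 to 3.25 CPM in 2% HS (median 2.58) and at 0.500 to 1.64 CPM in SD (median 1.10), and it was 2.29-fold lower (log2 fold change -1.19 ± 0.23, SE, adjusted p = 4.2e-05). The groups were separate by a narrow margin. Of the 8 leukocyte markers only Cd68, which other cells also express, had enough counts to be tested and was not called. Their summed level ranged from 1.75 to 2.55 RPKM in 2% HS and from 2.07 to 3.08 RPKM in SD, Tyrobp and Adgre1 were at 0 in all 30 libraries, and Ptprc had at most 2 counts in any library. Itgae, the other tested leukocyte chain, had a log2 fold change of 0.05 ± 0.34 (SE, adjusted p = 0.93).

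**Figure D3:**
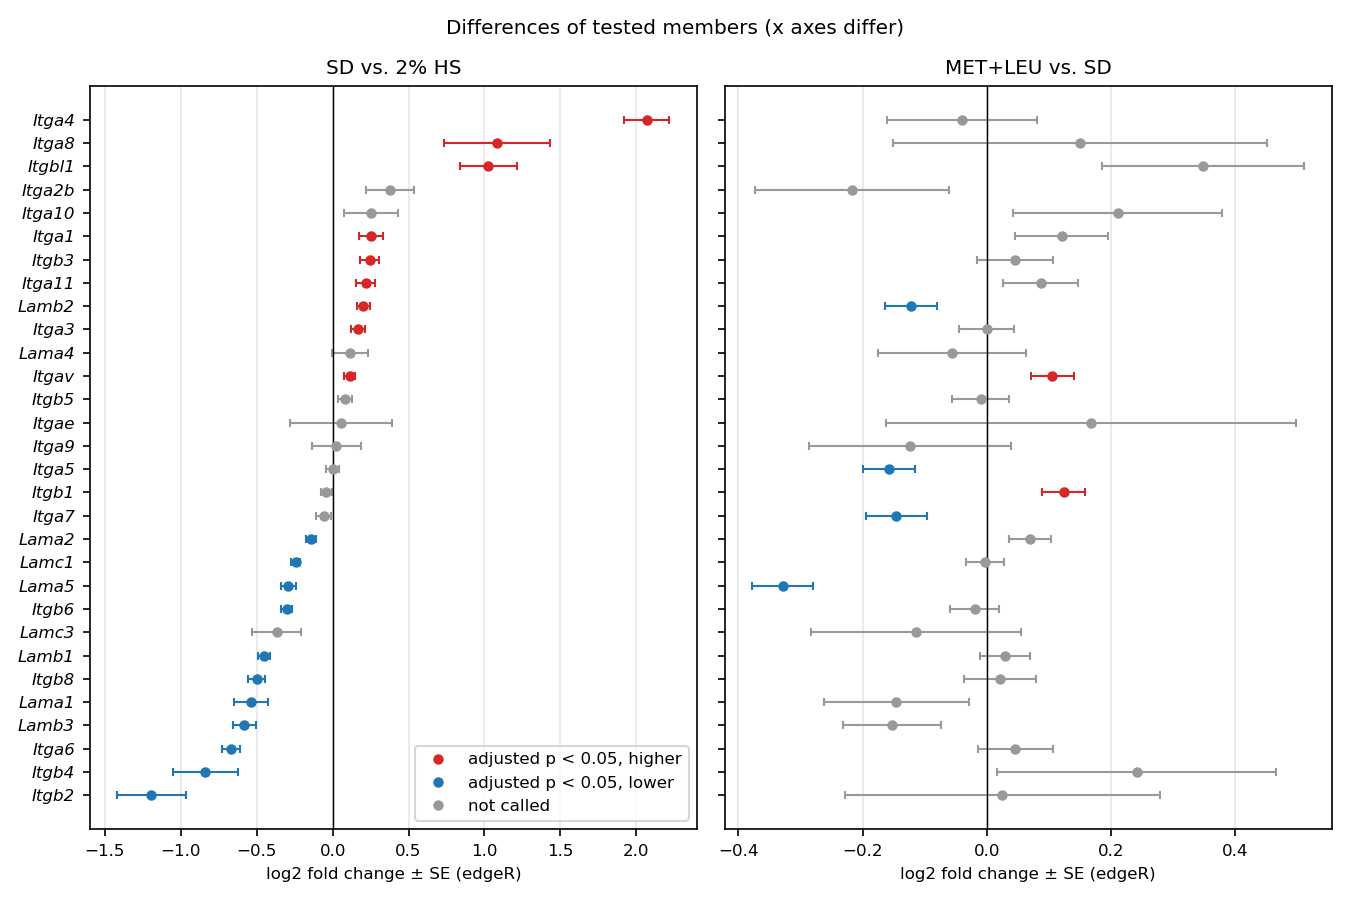
Log2 fold change with its standard error for 30 of the 31 tested members in SD vs. 2% HS (left) and MET+LEU vs. SD (right), ordered by the left panel and on different horizontal scales. Itga4 (2.07) and Itgb2 (-1.19) stand at the ends of the left panel, while on the right the 6 called members lie between -0.33 and 0.12.

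**Figure D4:**
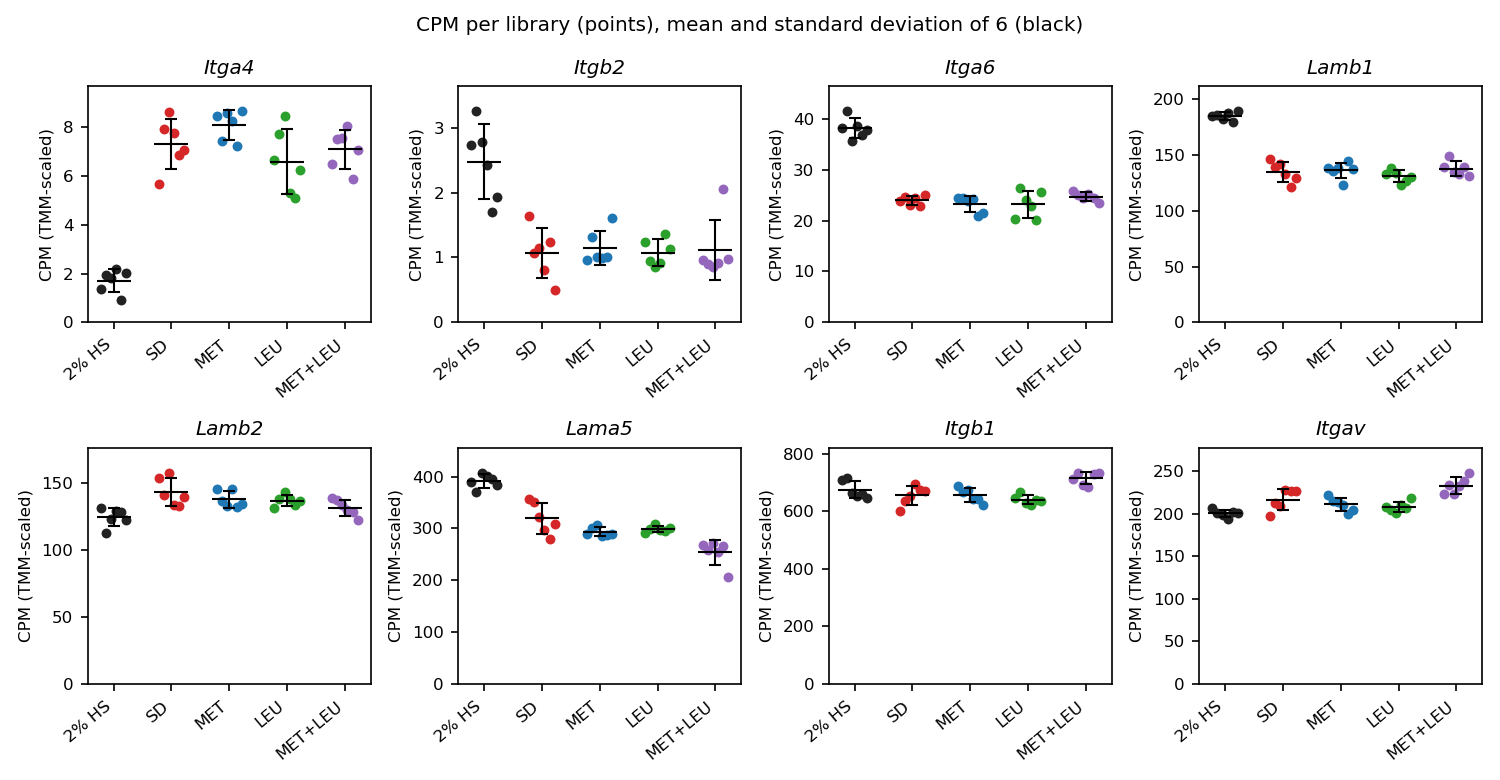
CPM in each of the 30 libraries for 8 chains (points), with the mean and standard deviation of 6 libraries in black, on axes that start at 0. Itga4, Itgb2, Itga6 and Lamb1 separate 2% HS from SD, and Lama5 steps down from 2% HS to SD and again to MET+LEU.

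Promoter windows of a few called genes are shown for reference. RefSeq promoter windows (GRCm38.p6) were matched for 24 of the 38 members, and 17 of these began within 100 bases of the GENCODE gene start. Of the members called in SD vs. 2% HS with such a match, those with the largest rises (Itga4 and Itga8) and falls (Lamb1 and Itgb6) are printed, and Lama5 as the member that was also lower in MET+LEU. Each run holds the 250 bases before the RefSeq start on the gene's strand, and capitals mark matches on either strand to the E-box CANNTG, the MCAT element GGAATG, the AP-1 site TGANTCA or the GC box GGGCGG.
Itga4 (chr2:79255176-79255425, plus strand): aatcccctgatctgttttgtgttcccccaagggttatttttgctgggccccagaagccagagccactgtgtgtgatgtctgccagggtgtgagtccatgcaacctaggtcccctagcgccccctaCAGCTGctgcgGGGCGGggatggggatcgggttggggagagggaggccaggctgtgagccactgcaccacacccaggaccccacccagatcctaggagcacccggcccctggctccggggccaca
Itga8 (chr2:12301945-12302194, minus strand): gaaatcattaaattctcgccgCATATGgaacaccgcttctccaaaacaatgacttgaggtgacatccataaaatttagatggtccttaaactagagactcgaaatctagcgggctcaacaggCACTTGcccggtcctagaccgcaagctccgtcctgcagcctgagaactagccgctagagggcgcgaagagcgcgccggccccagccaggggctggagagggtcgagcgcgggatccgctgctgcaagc
Lamb1 (chr12:31265043-31265292, plus strand): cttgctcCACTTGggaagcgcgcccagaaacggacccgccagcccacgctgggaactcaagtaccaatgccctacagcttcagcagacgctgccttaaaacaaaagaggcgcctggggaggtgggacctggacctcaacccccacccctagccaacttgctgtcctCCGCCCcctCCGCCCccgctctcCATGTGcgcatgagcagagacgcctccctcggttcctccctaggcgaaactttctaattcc
Itgb6 (chr2:60722604-60722853, minus strand): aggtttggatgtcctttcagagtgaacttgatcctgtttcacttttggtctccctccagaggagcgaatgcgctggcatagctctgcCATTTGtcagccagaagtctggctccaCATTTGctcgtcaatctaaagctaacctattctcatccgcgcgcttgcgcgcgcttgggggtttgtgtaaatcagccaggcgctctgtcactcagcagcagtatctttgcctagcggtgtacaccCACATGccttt
Lama5 (chr2:180225860-180226109, minus strand): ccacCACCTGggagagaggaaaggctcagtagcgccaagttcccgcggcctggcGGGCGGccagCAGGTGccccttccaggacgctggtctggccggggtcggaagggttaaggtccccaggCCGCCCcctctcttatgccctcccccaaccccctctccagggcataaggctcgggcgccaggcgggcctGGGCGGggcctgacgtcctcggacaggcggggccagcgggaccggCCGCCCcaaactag
All 5 windows held an E-box, as did 19 of the 24 matched members (79.2%) and 66.2% of 32851 windows genome-wide. GC boxes stood in the windows of Itga4, Lamb1 and Lama5, in 9 of the 24 (37.5%) and in 32.7% of all windows. MCAT elements occurred in 8.33% of member windows and 12.6% of all windows, and AP-1 sites in 4.17% and 6.75%. Lama5, with 4 GC boxes, had the most GC-rich window of the 24, at 72.4%. GC boxes thus stood before a gene that rose and before genes that fell.

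Genes that work with these chains were counted from lists of ligands, receptors and adaptors. Of 17 tested genes for other integrin ligands (26 listed), 10 were upregulated in SD and 3 downregulated, beside the 13.9% of all tested genes called in each direction. Thbs2, a matricellular thrombospondin, was 80.5 ± 8.19 CPM (s.d., n = 6) in 2% HS and 335 ± 19.5 CPM in SD (log2 fold change 2.06 ± 0.05, SE, adjusted p = 4.8e-32). Fn1, fibronectin, the ligand of Itga5 and Itga4 receptors, rose from 5002 ± 318 CPM to 7980 ± 183 CPM (log2 fold change 0.67), and Postn, periostin, rose by 0.86. The cell-surface ligand of Itga4, Vcam1, fell by 0.44 on the log2 scale, and Ccn2, a matricellular ligand, by 1.07. Basement membrane partners split, with 7 of 17 tested upregulated (Col15a1 by 2.16, Smoc1 by 1.69 and Col18a1 by 0.69) and 8 downregulated, among them the laminin-binding nidogens Nid2 (-0.62) and Nid1 (-0.38). Among 6 other laminin receptors, Dag1, dystroglycan, fell from 1491 ± 60.4 CPM (s.d., n = 6) to 1071 ± 36.6 CPM (log2 fold change -0.48 ± 0.04, SE, adjusted p = 2.5e-15) and Bcam by 0.52, and none rose. Of 50 tested adhesion adaptors and signalling genes, 16 rose, led by the kinase Ptk2b (0.93), and 15 fell, among them the adaptors Lims2 (-0.60) and Fermt2, a kindlin that activates integrins (-0.28).

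Neither compound alone gave a called member. In MET vs. SD, 0 of 31 members passed edgeR's adjusted p of 0.05, with 0.157% of all genes called, and 4 had an unadjusted p under 0.05 (Itga5, Lama5, Itgb6 and Itgb4). LEU vs. SD likewise had 0 members past the threshold and 0.553% of all genes called, with 0 members at an unadjusted p under 0.05. DESeq2 called 0 members in each of these comparisons. The log2 fold change of Lama5 was -0.12 ± 0.05 (SE, adjusted p = 0.37) in MET and -0.10 ± 0.05 (SE, adjusted p = 0.52) in LEU.

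Few chains were called for the combination, each by a small step. In MET+LEU vs. SD, 2 of 31 members were upregulated and 4 downregulated. These are 19.4% of the members, near the 18.4% of all tested genes called (10.6% higher and 7.80% lower). The median log2 fold change was 0.01 over members and -0.01 over all genes. Lama5 (chr2:180176373-180225859, minus strand) was the called member without overlap: it was at 280.1 to 357 CPM in SD (median 316) and 207 to 271 CPM in MET+LEU (median 263), and groups were separate for 5.34% of all genes. It was 1.26-fold lower (log2 fold change -0.33 ± 0.05, SE, adjusted p = 1.2e-05) and made up 63.9% ± 3.20 (s.d., n = 6) of the laminin alpha level, against 69.7% ± 2.14 in SD and 71.7% ± 0.992 in 2% HS. Its lowest library was MET+LEU replicate 6, and without it the log2 fold change was -0.28 ± 0.04 (SE, adjusted p = 3.8e-07).

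Itgbl1 also had separate groups, at 1.90 to 2.39 CPM in SD and 2.49 to 3.24 CPM in MET+LEU, with a log2 fold change of 0.35 ± 0.16 (SE) that did not pass the test (adjusted p = 0.13). The 5 other called members had overlapping groups. Itgb1 (chr8:128685654-128733200) was at 603 to 697 CPM in SD (median 663) and 687 to 735 CPM in MET+LEU (median 722), a log2 fold change of 0.12 ± 0.03 (SE, adjusted p = 0.0090). Itgav (chr2:83724397-83806916) went from 197 to 228 CPM (median 219.7) to 223 to 248 CPM (median 233), a log2 fold change of 0.11 ± 0.03 (SE, adjusted p = 0.026). These are chains of many receptors, and both rose. Itga5 fell from 212 to 248 CPM (median 223) to 166 to 215 CPM (median 207), a log2 fold change of -0.16 ± 0.04 (SE, adjusted p = 0.0057). Itga7 (chr10:128933818-128958282) fell from 705 to 864 CPM (median 767) to 569.8 to 759 CPM (median 729.8), a log2 fold change of -0.15 ± 0.05 (SE, adjusted p = 0.032). Lamb2 (chr9:108479736-108490530) fell from 133 to 157 CPM (median 140.2) to 122 to 138 CPM (median 131), a log2 fold change of -0.12 ± 0.04 (SE, adjusted p = 0.033). The 3 that fell here had their lowest library in MET+LEU replicate 6.

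GC content and single libraries moved with these calls. The longest annotated transcripts of the 4 members that fell have 57.3% to 59.9% GC and those of the 2 that rose 43.5% and 44.8%. Over all tested genes the median log2 fold change went from 0.06 below 45% GC to -0.10 at 55% and above, with a Spearman correlation across 15881 genes, which share libraries and are not independent, of -0.30. With a GC offset in each library, 1 member was called, Lama5 (-0.21 ± 0.03, SE, adjusted p = 3.7e-06), and Lamb2 was at -0.01 (adjusted p = 0.84). A fit of only SD and MET+LEU also called 1 member, Lama5 (adjusted p = 0.0073). Without MET+LEU replicate 6, 3 members were called (Lama5, Itga5 and Itgb1), without SD replicate 1, 2 members, and without SD replicate 3, 3 members. The call of Itgav was lost without any of 7 libraries (SD replicates 1, 2 and 3 and MET+LEU replicates 2, 4, 5 and 6), and those of Itga7 and Lamb2 without SD replicate 1, SD replicate 3 or MET+LEU replicate 6. That of Itgb1 was lost without SD replicate 1 (adjusted p = 0.059). The part of GC content in the differences was not tested beyond this offset.

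**Figure D5:**
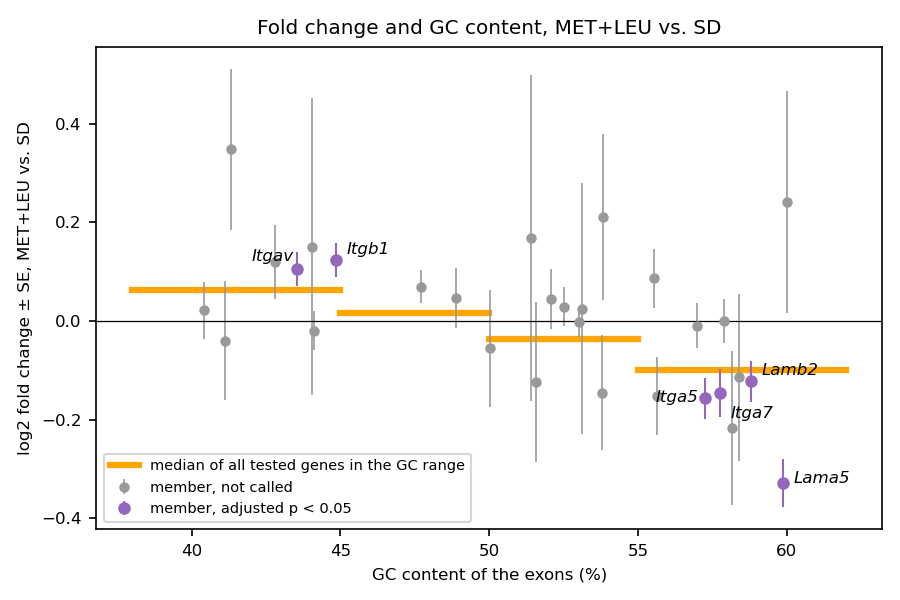
Log2 fold change in MET+LEU vs. SD with its standard error against GC content for 30 of the 31 tested members. GC content is that of each gene's longest annotated transcript (named exons on the axis). Bars give the median of all tested genes in 4 GC ranges. The bars step down from 0.06 to -0.10, and Lama5 (-0.33 at 59.9% GC) lies below the bar of its range by more than the other called members.

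Lama5, Itgb1 and Itgav also differed between the combination and each single compound. In MET+LEU vs. LEU these 3 members were called, 2 higher and 1 lower, and 6.28% of all genes (4.61% higher and 1.67% lower), with log2 fold changes of -0.23 ± 0.05 (SE, adjusted p = 0.0040) for Lama5, 0.16 ± 0.03 (SE, adjusted p = 0.0041) for Itgb1 and 0.16 ± 0.03 (SE, adjusted p = 0.0032) for Itgav. All 3 had separate groups, as had 3.60% of all genes: Lama5 was at 291 to 309 CPM in LEU and at most 271 CPM in MET+LEU, Itgb1 at most 667 and at least 687 CPM, and Itgav at most 218.5 and at least 223 CPM. In MET+LEU vs. MET, 3 members were called higher and 1 lower, with 8.69% of all genes called (5.54% higher and 3.15% lower). Lama5 was lower by 1.15-fold (adjusted p = 0.0070), while Itgav (0.14 ± 0.03, SE, adjusted p = 0.0061), Itgb1 (0.12 ± 0.03, SE, adjusted p = 0.020) and Lama2 (0.11 ± 0.03, SE, adjusted p = 0.026) were higher. With the GC offset the Lama5 log2 fold change moved to -0.13 ± 0.03 (SE, adjusted p = 0.0086) in MET+LEU vs. LEU and from -0.21 to -0.12 ± 0.03 (SE, adjusted p = 0.011) in MET+LEU vs. MET, and both stayed called. The Lama2 call was lost without any of 12 libraries, with an adjusted p of at most 0.13 (without MET+LEU replicate 6), and the Itgb1 call without MET replicate 5 or 6 or MET+LEU replicate 2, 5 or 6.

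The test of whether the combination differed from the sum of both single effects called 0 members by edgeR's quasi-likelihood test, with 0.0503% of all genes called and 2 members at an unadjusted p under 0.05. These were Itgav (0.20 ± 0.05, SE, adjusted p = 0.13) and Itgb1 (0.16 ± 0.05, SE, adjusted p = 0.27). DESeq2 called 1 member, Itgav (0.19 ± 0.05, SE, adjusted p = 0.016). With the GC offset, edgeR's test also called Itgav (0.17 ± 0.04, SE, adjusted p = 0.0495). For Lama5 the interaction was -0.11 ± 0.07 (SE, adjusted p = 0.68).

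MET+LEU was also set against 2% HS, in a comparison that shares its 2% HS libraries with the one for SD. There, 9 of 31 members were higher and 13 lower, with 42.3% of all genes called (22.1% higher and 20.3% lower). Itga4 had a log2 fold change of 2.03 ± 0.15 (SE) in MET+LEU and 2.07 in SD, Itgb2 -1.17 ± 0.23 and -1.19, Itga6 -0.62 ± 0.06 and -0.67, and Lamb1 -0.42 ± 0.04 and -0.45. Itgbl1 was at 1.37 ± 0.18 (SE) against 1.02 in SD, and its direct MET+LEU vs. SD difference was not called. Lama5 was at -0.62 ± 0.05 (SE, adjusted p = 2.6e-13), and was also called lower in MET+LEU vs. SD. Lamb2, higher in SD than in 2% HS and lower in MET+LEU than in SD, was at 0.08 ± 0.04 (SE, adjusted p = 0.13) in MET+LEU vs. 2% HS, and at 0.15 and called under the GC offset.

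Called against 2% HS in MET+LEU and not in SD were Itga5 (-0.16 ± 0.04, SE, adjusted p = 0.0020), Itga7 (-0.20 ± 0.05, SE, adjusted p = 0.00080), Lamc3 (-0.48 ± 0.16, SE, adjusted p = 0.015) and the cartilage collagen receptor chain Itga10 (0.46 ± 0.17, SE, adjusted p = 0.027). Itga10 lost the call without 2% HS replicate 2 or 6 or MET+LEU replicate 2 or 5, and 33.5% of its exon length is shared with Gm42957 on the same strand. Itgb4, at -0.60 ± 0.21 (SE, adjusted p = 0.018), lost it without 2% HS replicate 1 or 3. Lamc3 lost the call in edgeR's fit of only the groups compared without MET+LEU replicate 6 (adjusted p = 0.055). The direct MET+LEU vs. SD difference was not called for Lamc3 (-0.11 ± 0.17, SE, adjusted p = 0.70) or Itga10 (0.21 ± 0.17, SE, adjusted p = 0.42). Of the members called in SD, Lamb2 and Lama2 were not called in MET+LEU vs. 2% HS, and Lama2 was at -0.07 ± 0.03 (SE, adjusted p = 0.071). Lower in MET+LEU by larger steps were Lamb3 (-0.73 ± 0.08), Lama1 (-0.68 ± 0.11), Itgb8 (-0.48 ± 0.06), Itgb6 (-0.32 ± 0.04) and Lamc1 (-0.25 ± 0.03), each with an adjusted p of at most 2.6e-06. The higher members were Itga8 (1.23 ± 0.34), Itga1 (0.37 ± 0.08), Itga11 (0.30 ± 0.06), Itgb3 (0.29 ± 0.06), Itgav (0.22 ± 0.03) and Itga3 (0.17 ± 0.05), with adjusted p values of at most 0.0031.

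Partner genes were also counted in MET+LEU vs. SD, where 10.6% of all tested genes were higher and 7.80% lower. Among other integrin ligands, 4 of 17 tested rose, with Thbs1 at 3028 ± 90.0 CPM (s.d., n = 6) in SD and 3421 ± 87.7 CPM in MET+LEU (log2 fold change 0.18 ± 0.03, SE, adjusted p = 0.00015), Spp1, osteopontin, an Itgav ligand, at 0.19, and Ccn2 at 0.21. Tenascin C, Tnc, fell by 0.22 (adjusted p = 2.9e-06). For basement membrane partners the counts were 1 higher (Col4a2, 0.11) and 5 lower of 17 tested, with Col18a1, which had risen in SD, at -0.29 ± 0.07 (SE, adjusted p = 0.0031). Other laminin receptors had 1 of 6 higher (the syndecan Sdc2, 0.19) and 2 lower (Sdc3, -0.20, and Sdc1, -0.15). Adhesion adaptors had 5 of 50 higher, among them Itgb1bp2, the muscle protein melusin that binds the Itgb1 tail (0.20), and 7 lower, among them paxillin, Pxn (-0.22), and Vasp (-0.31). The adaptors called, 12 of 50, or 24%, were near the 18.4% of all genes. The 3 highest called adaptors (Itgb1bp2, Rap1a and Rsu1) have 38.8% to 50.9% GC and the 3 lowest (Vasp, Trip6 and Pxn) 57.7% to 58.0%. In the other lists these ranges overlapped. There, the largest called rises had 41.6% (Sdc2) to 60.6% GC (Col4a2). The largest called falls had 48.6% (Smoc2) to 60.8% GC (Col18a1). Cycling-cell markers moved in the same comparison, with 5 of 5 lower and a summed level of 18.4 to 25.9 RPKM in SD and 13.4 to 16.03 RPKM in MET+LEU. Of the 10 myotube markers 4 were higher and 1 lower, with a summed level of 4548 to 5451 RPKM in SD and 4854 to 5477 RPKM in MET+LEU. Of 3 tested fibroblast markers 1 was higher (5.92 to 8.09 RPKM in SD and 7.93 to 9.73 RPKM in MET+LEU, summed over the 4 listed), and of 5 markers of undifferentiated myoblasts 1 was lower (51.3 to 58.2 RPKM and 49.96 to 58.4 RPKM, summed). The part of these markers in the differences of members and partners was not tested.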

How the data were processed

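Per the labels, RNA from 30 libraries (Illumina stranded total RNA kit with ribosomal RNA removal, 150 × 150 bp reads) was processed with cutadapt 1.16, STAR 2.7.6a, featureCounts 1.6.3 and DESeq2 1.30.1 on GRCm38. The deposited values are raw counts per gene, without normalization. The annotation release, the strand setting and the handling of reads shared between genes are not given in the sources used here, so members that share exons with another gene are uncertain. Of 55487 identifiers, 55227 matched GENCODE M21, the source of symbols, coordinates, union exon length and the GC content of the longest transcript. The 260 unmatched ones held 0.00434% of all counts.

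Counts were analysed in R 4.3.3 with edgeR 4.0.16. Low genes were removed with filterByExpr (at least 10 counts in a group's worth of libraries, 15 in total) and libraries were scaled by TMM. A model with a mean per group took in all 30 libraries (glmQLFit, robust). Contrasts used its quasi-likelihood F test, p-values were adjusted by Benjamini-Hochberg over 15907 genes, and a gene was called at an adjusted p under 0.05. The biological coefficient of variation was 0.0709. The fold changes' standard errors are their size divided by the root of F. CPM are TMM-scaled, and RPKM are CPM per kilobase of exon. The GC offset was a smooth curve of log count on GC content per library. The fit was tested on simulated data. The planted changes were larger than those called in MET+LEU vs. SD, and no GC trend was simulated. That test therefore does not cover those calls.

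Of the tested members, 1 is counted in the totals and not reported here. Other members past the threshold in SD vs. 2% HS or MET+LEU vs. SD were described per library, others called with fold change and adjusted p, and of each partner list up to 3 called genes per direction whose mean log2 CPM was 1 or more. Members and lists were chosen with earlier results of these data known. Replicate numbers did not pair libraries: same-numbered libraries of different groups correlated over 0.1 in 2 of 60 pairs. Within groups, libraries differed beyond sampling noise (chi-square per degree of freedom of at least 2.29), so none was counted as a duplicate. Alternatives were DESeq2 size factors, upper-quartile scaling, the DESeq2 1.42.0 Wald test, genes with more than 5 counts in total, only the groups compared, a replicate block, each library left out, and, added after seeing the data, the GC offset and the groups compared without MET+LEU replicate 6.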

Additional observations from a re-analysis of the deposited data

Results flagged for a closer look

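In 12 of 155 sets of 6 libraries (31 members in 5 groups), 1 library lay far from the other 5 by Dixon's ratio of its gap to the whole range, where chance gives about 1 set in 20. Of these, 4 concerned MET+LEU replicate 6, the library with the high ribosomal RNA share: Itga5 was at 166 CPM against 204 to 215 CPM in the others (ratio 0.762), Lama5 at 207 against 255 to 271 CPM (0.751), Itga7 at 569.8 against 699.8 to 759 CPM (0.688) and Lama2 at 196 against 177 to 184 CPM (0.634). Itgb2 was high in MET+LEU replicate 5, at 2.05 CPM against 0.854 to 0.972 CPM (ratio 0.902).

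In 2% HS, Itga5 was low in replicate 2 (210.4 CPM, ratio 0.670), Itga2b low in replicate 6 (1.66 CPM, ratio 0.630) and Lama4 high in replicate 1 (7.76 CPM, ratio 0.725). Itga10 was high in SD replicate 4 (3.62 CPM, ratio 0.628). Itga7 was high in MET replicate 3 (808 CPM, ratio 0.656) and low in LEU replicate 2 (726 CPM, ratio 0.627), and Lamc3 was high in LEU replicate 4 (2.60 CPM, ratio 0.653).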

How the results depend on the processing

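In SD vs. 2% HS, 20 members were called and 19 to 22 under the alternatives and with single libraries left out. Itga8 was not tested in the fit of only the groups compared. MET+LEU vs. SD was less stable: 6 members were called by the main settings, DESeq2 size factors, the replicate block and the DESeq2 test, 5 with upper-quartile scaling, 4 with the looser filter on low counts, 1 in a fit of only the groups compared, 1 in that fit without MET+LEU replicate 6, 1 with the GC offset, and 2 to 7 with single libraries left out. The 1 member was Lama5 each time, with log2 fold changes between -0.37 and -0.21 over all settings. MET+LEU vs. MET had 4 calls, 2 with genes of more than 5 counts in total, 2 with only the groups compared, and 2 to 4 with single libraries left out. MET+LEU vs. 2% HS had 22 calls, 21 to 25 under the alternatives and 21 to 24 with single libraries left out, MET+LEU vs. LEU 3 and 3 to 4. The interaction had 0 calls in the main edgeR fit, also with single libraries left out, 1 in the edgeR fit with the GC offset and 1 by DESeq2, both Itgav. MET vs. SD and LEU vs. SD stayed at 0. The causes were not tested. Fits of only the groups compared use fewer libraries and repeat the filter, the scaling and the estimate of the spread, and these were not told apart.

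Of 2067 refits of the 55 member calls, 2003 kept the direction and the side of the threshold, 64 kept the direction without passing, and 0 reversed. Many of these refits left out a library of a group outside the comparison. Such a refit acts on the compared groups only through the shared filter, scaling and estimate of the spread. The counts of refits are therefore not independent checks. The replicate block gave 20 calls for SD vs. 2% HS, 6 for MET+LEU vs. SD, the counts without it, and changed no count of member calls. Members with a few counts per library, such as Itga8, Itgb2 and Itgae, have wide errors at this depth.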
